A study of Caenorhabditis elegans with 12 samples.

Results

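Gene expression of daf-2(e1370) adults that had been grown at 15 °C and then kept at 25 °C for 12 h was compared with that of N2 adults grown at 15 °C throughout. The comparison was set by the sample labels alone and took 6 of the 12 arrays of the study, 3 of each group. N2 is the wild-type laboratory strain, and e1370 is a temperature-sensitive reduction-of-function allele of daf-2. All groups were described as well fed, uncrowded adult worms with no treatment other than temperature, and total RNA of whole worms was hybridised to single-colour arrays. The other 6 arrays held N2 kept for 3 h or 12 h at 25 °C after growth at 15 °C. Strain and temperature changed together between the 2 groups compared, so their contributions cannot be told apart from these groups alone. N2 after 12 h at 25 °C is therefore given beside them for single genes.

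daf-2 encodes the worm's receptor for insulin-like peptides. Through the kinases AGE-1, PDK-1, AKT-1 and AKT-2 it keeps DAF-16, a FOXO transcription factor, out of the nucleus. When the receptor is weakened DAF-16 enters the nucleus, and genes for stress resistance, fat and sugar storage and detoxification are known to rise. Worms with reduced daf-2 function are long-lived and resistant to heat. The comparison addressed which genes of warmed daf-2 worms lay at the level of cold-grown wild type and which left it.

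Every signal is a log2 value after subtraction of the array's 75th percentile, and signals are listed in the order of replicate sets A, B and 1. Each set was 1 slide that held 1 array of every group. Set 1, scanned on a different day from sets A and B, had the most probes well above background, 35239 to 36998 (80.8% to 84.9%), against 24290 to 26752 (55.7% to 61.4%) in the others. Arrays correlated at 0.918 to 0.981 across genes within N2, at 0.961 to 0.978 within daf-2 and at 0.823 to 0.929 between the groups. The cold-grown N2 array of set B stood apart in sperm and cuticle collagen genes, as described with those genes. The 2 warmed N2 arrays of set B were also the highest of their groups in the medians of both lists. Separate cultures are not stated for the replicates, and sets A and 1 carry the same number in the source names. The p-values therefore measure the spread between these arrays, which may be technical. Markers of adult tissues were present: all 15 intestine, 23 muscle, 30 oocyte and eggshell and 6 vitellogenin and yolk receptor genes measured were well above background on all 6 arrays.

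Many genes left the level of cold-grown N2, and changes of more than 2-fold were mostly upward in the main fit. More genes rose than fell in every fit, but by how much depended on the fit, the scaling and the filter. The share of changed genes that rose ran from 50.4% with median centring to 76.3% without set A. In limma 4920 of 13486 genes (36.5%) changed at an adjusted p under 0.05. Of these 2875 rose (21.3% of the genes tested) and 2045 fell (15.2%). A rise of more than 2-fold was found for 2136 genes (15.8%) and a fall of more than 2-fold for 682 (5.06%). Beyond 4-fold, 943 genes rose and 142 fell. These larger rises include genes near background in N2, which the filter keeps when daf-2 is bright. Counts beyond 2-fold or 4-fold are not given for a stricter filter or another scaling, so the size of this asymmetry is uncertain. The 2 groups did not overlap for 4848 of the 4920, and for 49.7% of all genes tested.

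A p above the threshold does not show that levels were alike, so genes that stayed were read from the interval of the difference. For 5323 genes (39.5%) the 95% confidence interval lay wholly within 2-fold of cold-grown N2 in both directions. Of these, 516 were also past the threshold, with small differences. The remaining 3759 genes (27.9%) did not pass and had intervals that reached past 2-fold, so neither statement can be made of them. With the slide as a further term (the replicate block) 6844 genes changed, 3461 upward and 3383 downward, and 6516 lay within 2-fold. Of the 4920 changed genes 58.4% rose, against 50.6% with the block and 51.5% of the 4126 that changed when only genes well above background on all 6 arrays were tested. Without all arrays of set A, B or 1, the count of changed genes was 1742, 2785 and 4070. Centring arrays on the median instead of the 75th percentile moved the median difference over all genes from −0.11 to −0.44, and 1650 genes then rose and 1622 fell, so directions of small differences are relative to the scaling. Of the genes named in what follows, cct-3, cct-5, cct-7, col-19, dod-24, dpy-7, fasn-1, fat-7, gld-1, hcf-1, hsp-3, hsp-4, hsp-70, lgg-1, lys-7, nlp-29, nlp-30, pdk-1, pod-2, sdz-6, sod-1, spe-39, spe-48 and xbp-1 no longer passed when at least 1 single array was left out. Conversely age-1, cct-8, daf-18, daf-28, drd-50, hsf-1, old-1, vit-2 and vit-5, given as not passed, passed as falls with the block, and elt-2 as a rise. For dve-1, fasn-1, hsp-90 and spe-39 at least 1 other probe, with the same sign, did not pass. A call of within 2-fold is that of the brightest probe, and other probes were not judged by it.

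**Figure D1:**
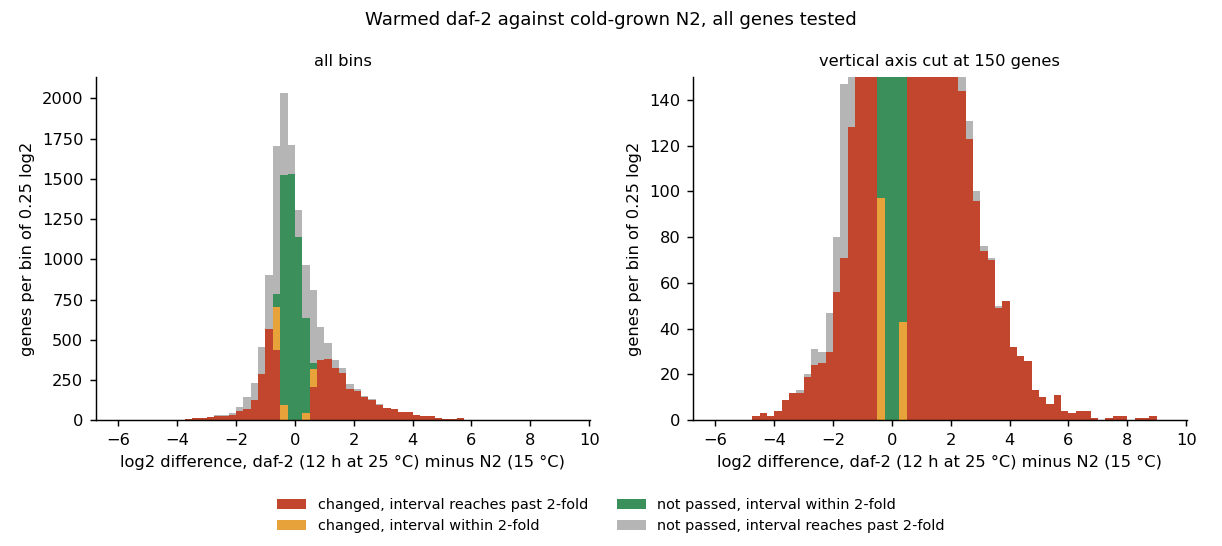
Distribution of the log2 difference of warmed daf-2 minus cold-grown N2 over 13486 genes, in bins of 0.25. The left panel shows whole bins and the right panel the same bins with the vertical axis cut low; colours mark whether a gene changed and whether its 95% interval lay within 2-fold. The upward tail is the longer one, with 943 genes that rose more than 4-fold against 142 that fell. That tail includes genes near background in N2, which the filter keeps when daf-2 is bright.

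Genes known to be raised by DAF-16 were far above cold-grown N2. The daf-2 probe showed no difference that passed, and the probes of daf-16 disagreed. For daf-16 the signal of the brightest probe was 1.40, 1.41 and 1.35 in N2 and 1.21, 1.33 and 1.06 in daf-2, a log2 difference of −0.18 with a 95% interval from −0.47 to 0.10, within 2-fold. Of its 4 other probes, 2 fell, by 0.90 (adjusted p = 0.0146) and 0.62 (adjusted p = 0.0208), and 2 did not pass (−0.56 and 0.00), so no single direction can be given for the gene. For daf-2 the values were −1.13, −1.02 and 0.18 against −0.32, −0.77 and 0.07. That difference of 0.32 did not pass and its interval, −0.83 to 1.46, reached past 2-fold; the e1370 allele is a point mutation, so the probe does not check the genotype. Of 22 measured genes that DAF-16 is known to raise, 17 rose and 0 fell, with a median log2 difference of 1.89 against −0.11 over all genes. The share that changed was 77.3%, against 36.5% of all genes.

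The metallothionein gene mtl-1, whose product binds metal ions, had log2 signals of −3.93, −4.81 and −1.92 in N2 and 5.27, 5.16 and 4.84 in daf-2. Every daf-2 array lay far above every N2 array, and the log2 difference was 8.65 ± 0.88 (SE, n = 3 arrays a group; adjusted p = 8.41e-05). In sod-3, the mitochondrial manganese superoxide dismutase that is the usual reporter of DAF-16 activity, signals went from −0.37, −0.40 and 0.02 to 3.78, 3.62 and 3.21, a difference of 3.79 ± 0.24 (adjusted p = 7.81e-06). Arrays of the same group differed by under 1 log2 unit in this gene. The ferritin gene ftn-1, which stores iron, went from −3.44, −3.39 and −3.89 to 2.71, 2.48 and 1.32, a difference of 5.74 ± 0.36. Rises of nearly 4 units were also found for nnt-1, a mitochondrial transhydrogenase (3.97 ± 0.41), and dod-3 (3.94 ± 0.46).

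Several members of the list concern protection of proteins and membranes. The small heat shock gene hsp-12.3 rose by 4.79 ± 0.34 and hsp-12.6 by 1.54 ± 0.23. lea-1, a relative of plant proteins that protect cells during drying, was at 4.57, 3.77 and 5.05 in N2 and at 7.18, 7.54 and 7.20 in daf-2, a rise of 2.84 ± 0.36. The linker histone gene hil-1 rose by 2.47 ± 0.36. The 5 members that did not pass were mtl-2 (−0.66), gst-10 (−0.34), old-1 (−0.79), asah-1 (0.23) and sip-1 (−0.29); asah-1 and sip-1 lay within 2-fold. Thus mtl-1 and mtl-2, the worm's paired metallothioneins, had differences of 8.65 and −0.66. The lysozyme gene lys-7 was near the threshold, at 2.79, 1.11 and 3.70 against 4.27, 4.53 and 5.10 (difference 2.11 ± 0.75, adjusted p = 0.0496).

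Genes that daf-2 mutants are known to express less were below cold-grown N2 in many cases. Of 9 measured, 5 fell and 0 rose, with a median of −1.63, and 8 fell with the replicate block. In the main fit 15.2% of all genes fell. pept-1, the intestinal importer of short peptides, went from 1.59, 2.31 and 1.68 to −2.51, −2.32 and −0.80, a difference of −3.74 ± 0.45 (adjusted p = 0.000192). The CUB-like genes dod-24 and dod-17 fell by 2.43 ± 0.64 and 2.13 ± 0.31, and dod-22 and dod-23 fell by 2.40 and 1.63. For the yolk protein gene vit-5 the difference was −0.33 and lay within 2-fold, while another probe differed by −0.50 ± 0.24 and did not pass. For vit-2, which had no usable N2 value in set B, it was −0.54 with an interval from −1.52 to 0.44. Without set B 3 of the 9 fell.

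**Figure D2:**
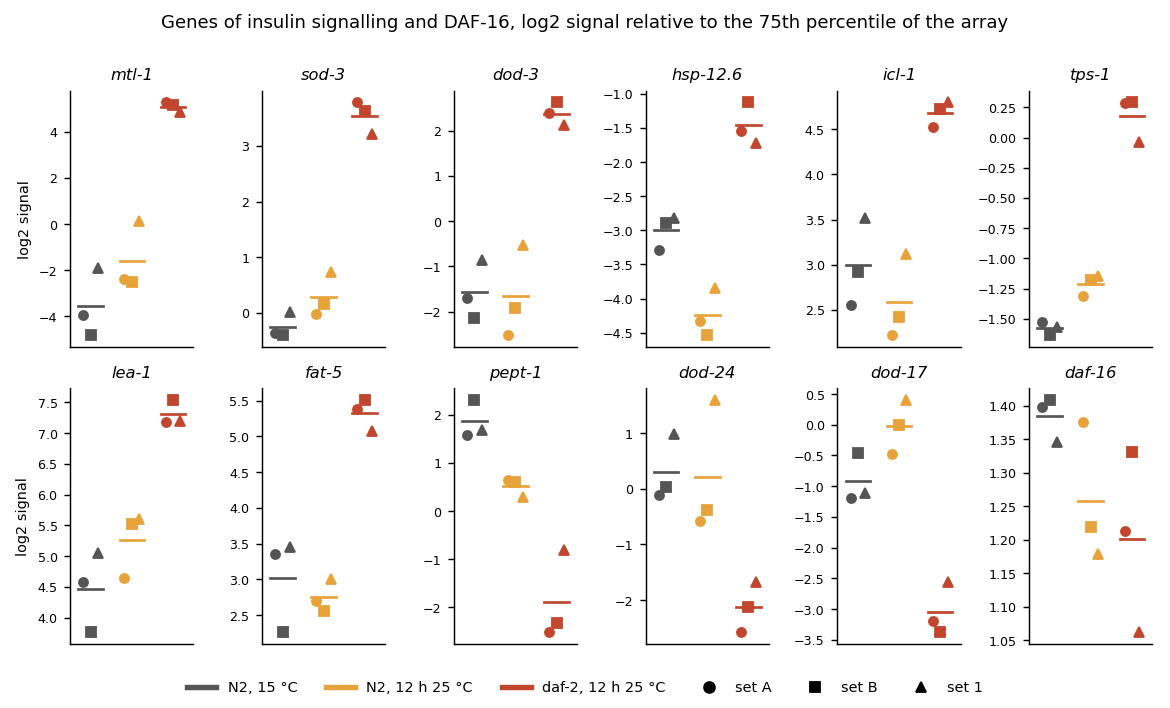
Log2 signals relative to the array's 75th percentile for 12 genes of insulin signalling and DAF-16; each point is 1 array, its shape marks the replicate set, lines are group means, and each panel has its own vertical scale. In mtl-1, sod-3 and fat-5 all daf-2 arrays lie above all N2 arrays at either temperature, whereas the values of the daf-16 probe shown lie between 1.06 and 1.41; 2 of the 4 other daf-16 probes, not plotted, fell.

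Among 16 genes of the signalling pathway itself, 5 rose and 1 fell, or 5 and 5 with the replicate block. In the main fit 37.5% of them changed, near the 36.5% of all genes. The kinase gene akt-2 was at −1.16, −1.19 and −0.99 in N2 and at 0.63, 0.71 and 0.47 in daf-2, a rise of 1.71 ± 0.14 (adjusted p = 2.8e-05). Its paralog akt-1 differed by −0.17 with an interval from −0.55 to 0.21. The other rises were pqm-1, a zinc finger factor that acts opposite to DAF-16 (1.02 ± 0.18), ist-1, an insulin receptor substrate homolog (1.01 ± 0.18), the 14-3-3 gene ftt-2 (0.83 ± 0.16) and pdk-1 (0.77 ± 0.23). Other probes of ftt-2 differed by −0.05 and 0.11 and did not pass. hcf-1, a nuclear partner that restrains DAF-16, fell by 0.68 ± 0.20. The phosphatase gene daf-18, the adaptor gene aap-1 and the phosphatase subunit gene pptr-1 lay within 2-fold, and for the kinase gene age-1 the difference was −0.53 with an interval from −1.06 to −0.01 (adjusted p = 0.101). Without set A 2 of the 16 rose.

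Insulin-like peptides, the ligands of the receptor, were higher in many cases. Of 30 measured, 16 rose and 0 fell, with a median of 0.75, and with the replicate block 18 rose and 2 fell. ins-23 was at −2.48, −2.58 and −2.44 in N2 and at −0.07, 0.41 and −0.25 in daf-2, a rise of 2.53 ± 0.21 (adjusted p = 3.15e-05). ins-22 rose by 2.28 ± 0.23 and ins-12 by 2.16 ± 0.32. Larger differences were found for ins-2 (4.32 ± 0.77), ins-35 (4.05 ± 0.37) and ins-10 (3.62 ± 0.28), each well above background on 2 of 3 N2 arrays. ins-6, which acts on the receptor as an agonist, rose by 1.06 ± 0.20. The agonist genes ins-7 and daf-28 had differences of −0.11 and −0.43 that did not pass, with intervals from −1.38 to 1.16 and from −1.22 to 0.36, and ins-18 lay within 2-fold (0.18, interval −0.21 to 0.56). Without set A 7 of the 30 rose, and without set B 11.

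Heat shock genes split by class. Of 14 small heat shock genes, whose products hold unfolding proteins, 8 rose and 0 fell, with a median of 1.64. The same count was found without any 1 of the 3 sets. That is 57.1% changed, against 36.5% of all genes. hsp-16.2 was at −6.08, −2.39 and −3.95 in N2 and at 0.34, 0.73 and 1.58 in daf-2, a rise of 5.02 ± 0.83 (adjusted p = 0.00123), and it was well above background on 2 of 3 N2 arrays. hsp-16.21 rose by 4.28 ± 0.47 from a level well above background on 1 of 3 N2 arrays. Rises of 3.01 ± 0.53 and 1.75 ± 0.26 were found for hsp-16.41 and hsp-16.1. hsp-12.1 rose by 2.54 ± 0.46, and hsp-16.48 by 2.32 ± 0.46. Some hsp-16 genes are similar in sequence, so their probes can share signal. hsp-17, hsp-43 and sip-1 lay within 2-fold of cold-grown N2. Other probes of sip-1 differed by −0.65 ± 0.40 and −0.0006 ± 0.17, and neither passed.

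Cytosolic chaperones that fold proteins in unstressed cells were lower: of 22 measured, 11 fell and 1 rose. The share that changed was 54.5%, against 36.5% of all genes. The gene that rose was hsp-70, the stress-inducible member, at −4.10, −0.71 and −1.50 in N2 and −0.08, 0.52 and 0.79 in daf-2 (2.52 ± 0.71, adjusted p = 0.0198). The constitutive hsp-1 fell by 0.77 ± 0.14, hsp-110 by 1.26 ± 0.20 and hsp-90 by 0.54 ± 0.14. Of the chaperonin ring that folds actin and tubulin, cct-1, cct-2, cct-3, cct-4, cct-5, cct-6 and cct-7 fell, by 0.62 to 1.06, and cct-8 had a difference of −0.98 that did not pass. The regulator hsf-1 lay within 2-fold (−0.43, interval −0.92 to 0.05). The fall was counted for 6 members with quantile normalization, and for 2 and 4 without set A or set B.

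Folding genes of the endoplasmic reticulum mostly lay within 2-fold of cold-grown N2, although many changed by small amounts. Of 18 genes of its unfolded protein response, 14 lay within 2-fold, 5 rose and 3 fell. That is 77.8% within 2-fold and 44.4% changed, against 39.5% and 36.5% of all genes. The median was −0.05, but 0.18 with quantile normalization and −0.37 with median centring. The paired BiP chaperone genes moved apart: hsp-3 was at 4.79, 4.93 and 4.71 in N2 and 5.21, 5.24 and 5.18 in daf-2 (0.40 ± 0.12), whereas hsp-4 was at 3.17, 2.76 and 2.99 against 2.46, 2.45 and 2.37 (−0.55 ± 0.14). The groups did not overlap in either gene although both lay within 2-fold. Of the 8 other hsp-3 probes, all with positive differences, 2 passed. xbp-1 and atf-6, regulators of the response, rose by 0.59 ± 0.18 and 0.73 ± 0.17; the 2 other atf-6 probes did not pass (0.52 and 0.76). In the mitochondrial response the regulator dve-1 rose by 1.51 ± 0.17 and the chaperone hsp-6 fell by 0.80 ± 0.17, out of 8 genes measured. Without set A or set B 1 and 0 of the 18 genes rose.

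Some enzymes that remove reactive oxygen were raised. Of 21 measured, 9 rose and 0 fell, while 9 lay within 2-fold. That is 42.9% changed and 42.9% within 2-fold, against 36.5% and 39.5% of all genes. The peroxisomal catalase ctl-2 went from 1.72, 1.93 and 1.57 to 3.90, 4.05 and 3.33, a rise of 2.02 ± 0.20. Its tandem neighbours ctl-1 and ctl-3 rose by 1.67 ± 0.24 and 1.52 ± 0.19; the 3 catalases are close in sequence and may share signal. sod-1, the cytosolic superoxide dismutase, rose by 0.72 ± 0.22, and the mitochondrial sod-2 lay within 2-fold (0.34, interval −0.14 to 0.83). The peroxiredoxins prdx-2, prdx-3 and prdx-6 also stayed within 2-fold, with differences of −0.08, 0.06 and −0.02. Without set A, without set B or without the N2 array of set A alone, 6 of the 21 rose.

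Genes of trehalose synthesis and the glyoxylate cycle, which makes sugar from fat, rose among 17 measured genes of those routes, of which 5 rose and 1 fell. The share of the 17 that changed, 35.3%, was near the 36.5% of all genes. icl-1, whose product carries both glyoxylate enzymes, was at 2.55, 2.92 and 3.52 in N2 and 4.52, 4.73 and 4.80 in daf-2, a rise of 1.68 ± 0.29 (adjusted p = 0.00173). The trehalose synthases tps-1 and tps-2 rose by 1.76 ± 0.15 and 1.69 ± 0.18, with all daf-2 arrays above all N2 arrays. The trehalase gene tre-5 fell by 1.77 ± 0.41 and was well above background on only 1 of 3 daf-2 arrays. By contrast, 24 of 31 genes of glycolysis and the citric acid cycle lay within 2-fold, and the share that changed was 22.6%. Among them 5 fell, including sucg-1 (−0.84) and aco-2 (−0.76; of its 8 other probes 3 fell and 5, from −0.60 to 0.30, did not pass), and 2 rose, including the pyruvate kinase gene pyk-2 (0.74; its 3 other probes, 0.51 to 0.57, did not pass). With the replicate block 8 of the 17 sugar genes rose. Without set B 3 of the 17 sugar genes rose, and without set A, B or 1 0, 2 and 2 of the 31 fell.

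In fatty acid synthesis 9 of 20 genes rose and 1 fell, while 21.3% and 15.2% of all genes did. The desaturases, which put double bonds into fatty acids, did not move together. fat-5 was at 3.36, 2.26 and 3.45 in N2 and at 5.39, 5.51 and 5.07 in daf-2, a rise of 2.30 ± 0.30 (adjusted p = 0.000364). fat-2 rose by 1.62 ± 0.13 and fat-6 by 1.39 ± 0.14. fat-7, a close relative of fat-6, was at 2.69, 2.60 and 1.01 in N2 and at −0.17, −0.81 and −0.97 in daf-2, a fall of 2.75 ± 0.84 (adjusted p = 0.0277). The acetyl-CoA carboxylase gene pod-2 and the fatty acid synthase gene fasn-1 rose by 1.18 ± 0.32 and 0.58 ± 0.17. Without the daf-2 array of set B 3 of the 20 rose, and without set A 4.

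Of 27 genes of fat breakdown and lipid binding, 7 rose and 1 fell. The share that changed, 29.6%, was below the 36.5% of all genes. lipl-4, a lysosomal lipase linked to long life in worms without a germline, went from −5.36, −5.83 and −4.55 to −0.91, −0.77 and −1.06, a rise of 4.34 ± 0.43 (adjusted p = 7.12e-05), and was well above background on 1 of 3 N2 arrays. lbp-8, the lipid chaperone that acts with it, rose by 2.82 ± 0.40, and the lipase gene lipl-2 by 3.03 ± 0.40. The acyl-CoA dehydrogenase gene acdh-2 fell by 3.88 ± 0.93. In autophagy, 19 of 27 genes lay within 2-fold and 8 rose: sqst-1, the p62 receptor for autophagic cargo, was at 1.38, 1.51 and 1.30 against 3.09, 3.41 and 3.06 (1.79 ± 0.16), epg-2 rose by 2.43 ± 0.40, atg-2 by 1.83 ± 0.14 and lgg-1, the worm's Atg8, by 0.75 ± 0.20. Among the autophagy genes too, 29.6% changed. Without set A or set B 4 of the 27 lipid genes and 2 and 4 of the autophagy genes rose.

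**Figure D3:**
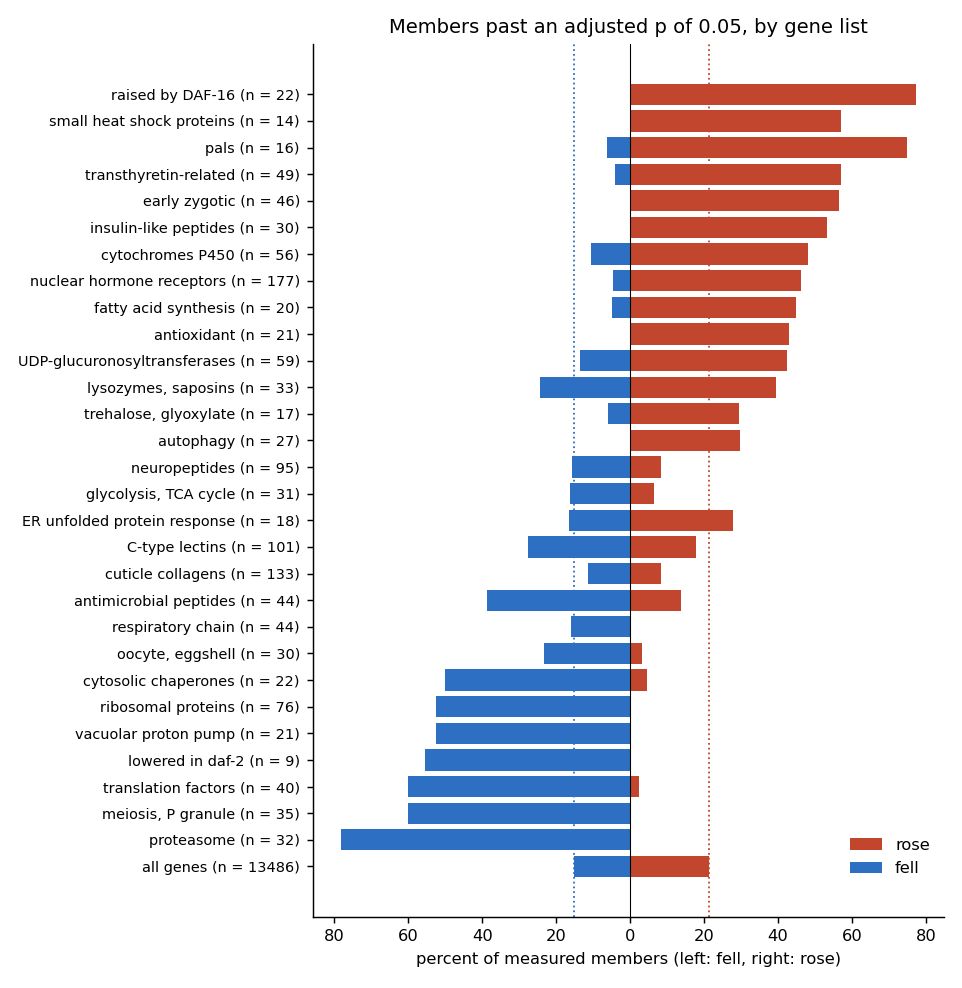
Percent of the measured members of 29 gene lists that rose (right) or fell (left) in warmed daf-2 against cold-grown N2, with the numbers measured beside the names. Dotted lines mark the 21.3% and 15.2% of all 13486 genes that rose or fell. Genes raised by DAF-16 and pals genes reach farthest right and proteasome subunits farthest left. Some pals genes were near background in N2 and were kept because daf-2 was bright.

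The largest fitted rises among genes with a symbol ran from scl-20 (8.83 ± 0.47) to far-3 (5.91 ± 0.28). scl-20, a secreted SCP-like protein, was at −7.31, −7.11 and −5.92 in N2 and at 2.32, 2.25 and 1.59 in daf-2. In N2 it was well above background on 1 of 3 arrays, as were col-50 (8.39), col-183 (7.84), hch-1 (6.54), cest-1.1 (6.50), cpg-24 (6.31) and srlf-12 (6.26). cdr-3, a cadmium-responsive gene, was not well above background on any N2 array and was at least 49.6-fold higher in daf-2, taking the lowest well-measured signal of each array as the bound (fitted difference 7.56, adjusted p = 0.000333). Since N2 was mostly at background there, the order and exact size of these differences are uncertain. For scl-20, col-50 and col-183, warmed N2 too was well above background on 1 of 3 arrays. Another col-50 probe differed by 3.00 and did not pass (adjusted p = 0.0920). hch-1 encodes the protease with which embryos hatch, and cest-1.1 a carboxylesterase.

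icmt-1, a methyltransferase gene, was at −5.65, −0.25 and −4.20 in N2, where set B lay far above the others, and at 4.52, 4.34 and 3.56 in daf-2 (7.51 ± 1.25). The fatty acid and retinol binding gene far-3 was measured on all arrays and was at 0.57, 0.16 and 1.13 against 6.64, 6.75 and 6.19. Its arrays within a group differed by under 1 log2 unit, and the adjusted p was 2.23e-06. The linker histone relative hil-7 rose by 6.12 ± 0.85.

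The largest falls were smaller, from clec-10 (−4.47 ± 0.22) to nlp-26 (−3.47 ± 0.40). clec-10, a C-type lectin, was at 0.46, 0.72 and 0.40 in N2 and at −3.99, −3.65 and −4.17 in daf-2 (adjusted p = 2.68e-06). hrg-3, which carries heme from the mother to embryos, went from 0.39, 0.91 and 1.02 to −2.75, −3.21 and −2.74, a fall of 3.68 ± 0.31. The others were drd-10 (−4.35), acdh-2, the cuticle collagens col-135 (−3.84) and col-40 (−3.57), fipr-6 (−3.78), fipr-5 (−3.58), pept-1, clec-218 (−3.73) and argk-1, an arginine kinase (−3.68). In daf-2 only 2 of 3 arrays had acdh-2, fipr-6 and argk-1 well above background, and 1 had col-40.

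Detoxification families changed in both directions, more often upward. Of 56 cytochromes P450, 27 rose and 6 fell, with a median of 0.98. cyp-34A9 was at −2.81, −2.89 and −2.35 in N2 and at −0.31, 0.39 and 0.16 in daf-2, a rise of 2.76 ± 0.26, and cyp-14A4 rose by 4.05 ± 0.43 from a level well above background on 1 of 3 N2 arrays. Of 59 UDP-glucuronosyltransferases, which couple sugars to foreign compounds, 25 rose and 8 fell. The same limit holds there, with 44 of the 59 well above background on all 6 arrays. ugt-41 rose by 3.04 ± 0.23, from −1.31, −0.68 and −1.34 to 1.75, 2.19 and 1.85. Glutathione S-transferases were balanced, with 9 of 42 higher and 12 lower: gst-29 rose by 4.21 ± 0.33 and gst-38 fell by 2.43 ± 0.32. The share of them that rose was near that of all genes. Among 28 short-chain dehydrogenases 11 rose and 1 fell, and dhs-7 rose by 2.55 ± 0.22. Without set A 14 P450s, 15 transferases of sugars and 4 dehydrogenases rose, without set B 13 P450s rose, and 6 and 5 glutathione transferases fell without set A or set B, as did 6 without the N2 array of set 1.

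The genes that fell included many secreted defence proteins. Of 101 C-type lectins, 28 fell (27.7%) and 18 rose (17.8%), against 15.2% and 21.3% of all genes. clec-218 went from 1.01, 1.05 and 0.98 to −2.44, −2.58 and −3.11, whereas clec-266 went from −0.75, −0.71 and 0.29 to 3.67, 3.85 and 3.79 (4.16 ± 0.40). clec-61 and clec-13, which were not well above background on any N2 array, were at least 12.0-fold and 8.61-fold higher. Of 44 antimicrobial peptide genes, 17 fell and 6 rose, with a median of −0.72. The caenacin gene cnc-2 was at 2.64, 1.35 and 2.96 in N2 and at −1.07, −1.23 and −0.96 in daf-2, a fall of 3.40 ± 0.47 (adjusted p = 0.000459). In the same list fipr-26 rose by 3.91 ± 0.19, from −3.46, −3.32 and −3.03 to 0.45, 0.73 and 0.75. By set the median was −0.05 (A), −1.30 (B) and −0.88 (1), and 9 members fell without set A and 11 without set B.

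Lysozymes and saposin-like proteins rose in 13 of 33 cases and fell in 8, while 21.3% of all genes rose and 15.2% fell. spp-20 was at −4.69, −2.99 and −3.94 in N2 and at −1.2, 0.69 and 0.63 in daf-2, a rise of 3.92 ± 0.68, and 5 members rose without set A or without set B. The pals genes, many of which respond to intracellular infection, were higher: of 16 measured, 12 rose and 1 fell, with a median of 1.46. Only 8 of the 16 passed the background on every array of both groups. A gene near background in N2 was kept if daf-2 was bright, so the filter can favour rises in this list. pals-26 rose by 3.94 ± 0.35 and pals-27 by 3.68 ± 0.27, both well above background on 1 of 3 N2 arrays. Of 177 nuclear hormone receptors, 82 rose and 8 fell, with 63 within 2-fold and a median of 0.60. nhr-25, an Ftz-F1 homolog needed for moulting, was at −3.35, −3.39 and −3.05 against −0.48, −0.13 and −0.11, a rise of 3.03 ± 0.23. Without set A or set B, 28 and 43 of these receptors rose. Of 49 transthyretin-related genes 28 rose and 2 fell, with ttr-23 (5.10 ± 0.61) the largest rise, and without set A 12 rose.

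Cuticle collagens held some of the largest changes but moved in both directions. Of 133 measured, 11 rose and 15 fell. The share that changed, 19.5%, was below the 36.5% of all genes. The rises were large: dpy-17 went from 0.67, −0.12 and 1.80 to 4.85, 5.67 and 6.52, a difference of 4.89 ± 0.65 (adjusted p = 0.000379), and col-121 rose by 5.82 ± 0.77 from a level well above background on 1 of 3 N2 arrays. dpy-7, well above background on 2 of 3 N2 arrays, rose by 4.41 ± 1.05 with its daf-2 value of set 1 missing, and sqt-3 by 3.96 ± 0.90. The falls were mostly smaller, with col-19, an adult collagen, at −0.75. By set the median was 0.43 (A), −1.65 (B) and 0.32 (1), and it was 0.41 without set B against −0.55 with it, so the sign of the median rests on 1 set; 8, 8 and 9 members fell without set A, B or 1. Epidermis markers rose in 6 of 13 cases and fell in 2. wrt-10, a hedgehog-related gene well above background on 2 of 3 N2 arrays, rose by 4.73 ± 0.62, while nhr-23, a regulator of moulting, fell by 0.72 ± 0.17. The epidermal factor gene elt-3 lay within 2-fold (0.03, interval −0.32 to 0.37). Without set B 3 of the 13 rose.

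Protein synthesis and degradation machinery was slightly lower as a group, by amounts that depend on the scaling. Of 32 proteasome subunits, 25 fell and 0 rose, with a median of −0.71, while 15.2% of all genes fell. rpn-5, a subunit of the lid, was at 4.09, 3.71 and 3.81 in N2 and at 3.05, 3.09 and 2.80 in daf-2 (−0.89 ± 0.18, adjusted p = 0.00365), and pas-7, of the core, fell by 1.18 ± 0.26. With quantile normalization 22 fell and the median was −0.52. Without set A, where the N2 array was the highest in both of these genes, 0 of the 32 passed, without set B 7 did, and without the N2 array of set A alone 10 did. Of 40 translation factors, 24 fell and 1 rose (median −0.62), with eif-3.E (−1.22 ± 0.26) and the cap-binding ife-1 (−1.17 ± 0.25) as the largest falls; without set A 2 fell, and without set B 12.

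Ribosomal protein genes depended on the scaling more strongly. Of 76 measured, 40 fell and 0 rose with a median of −0.49, but with quantile normalization 1 fell and the median was −0.06, with normexp correction 4 fell and the median was −0.08, and without set A or set B 0 and 3 fell. rps-28 was at 7.31, 7.39 and 6.96 in N2 and 6.16, 6.09 and 6.37 in daf-2 (−1.01 ± 0.16). The vacuolar proton pump had 11 of 21 subunits lower and 0 higher, among them the intestinal vha-6 (−1.28 ± 0.27); 2 of the 21 fell without set A and 3 without set B, and 18 with the replicate block. In the respiratory chain 35 of 44 genes lay within 2-fold and 7 fell, with cox-17 (−1.05) the largest. The share that fell, 15.9%, was near the 15.2% of all genes. With quantile normalization 2 of the 44 rose and 6 fell, and without set A or set B 1 and 2 fell.

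Germline genes were lower and early embryonic genes higher than in cold-grown N2. In whole worms fewer cells of a type and less RNA per cell cannot be told apart. Of 35 genes of meiosis and P granules, 21 fell and 0 rose, while 15.2% of all genes fell. Their median was −0.65, with −0.88, −0.36 and −0.83 in sets A, B and 1. The P granule gene pgl-2 was at 1.59, 1.24 and 1.1 in N2 and at 0.29, 0.15 and −0.08 in daf-2, a fall of 1.19 ± 0.19 (adjusted p = 0.00112). The Argonaute gene csr-1 fell by 1.17 ± 0.25, glp-1, the Notch receptor of germline stem cells, by 0.79, and gld-1, which lacked its daf-2 value of set B, by 1.30 ± 0.34. Without set A 3 of the 35 fell and without set B 13. Of 30 oocyte and eggshell genes, 7 fell and 1 rose, the caveolin gene cav-1 (2.09 ± 0.25), and the eggshell genes cpg-1 and cpg-2 lay within 2-fold; without the N2 array of set A 2 fell and without set A 0, and 14 fell with the replicate block. Of 6 other cpg-1 probes 1 fell, by 0.50.

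Among 46 genes first transcribed in the embryo, 26 rose and 0 fell, with a median of 1.1, while 21.3% of all genes rose. hlh-1, the MyoD homolog of embryonic muscle, was at −1.88, −1.56 and −1.77 in N2 and at 0.23, 0.54 and 0.34 in daf-2, a rise of 2.11 ± 0.23 (adjusted p = 0.000112). sdz-24 rose by 3.78 ± 0.89 and sdz-19 by 2.57 ± 0.30, the latter from a level well above background on 1 of 3 N2 arrays. The medians were 1.49, 1.60 and 0.26 in sets A, B and 1, and 4 members rose without set A and 11 without set B. The median log2 signal of the list ran from −2.82 to −1.82 over the N2 arrays and from −1.42 to −1.1 over the daf-2 arrays. The part of embryos held in the worms in this difference was not tested.

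Sperm genes showed no common direction. Over 66 measured, the median difference was 1.27 in set A, −5.59 in set B and 1.02 in set 1. The median signal of the list was 3.13 on the cold-grown N2 array of set B, against −1.16 and −0.84 in sets A and 1. It was 0.20, −1.96 and 0.11 on the daf-2 arrays. In N2 after 3 h at 25 °C it was 0.48, 2.85 and 0.91, and after 12 h 1.23, 2.26 and −0.11. Set B was thus the highest in all 3 N2 groups. In the fit of all arrays 1 member rose, spe-21 (2.42 ± 0.54, well above background on 2 of 3 N2 arrays), and 2 fell, spe-39 (−0.70) and spe-48 (−0.64). Without set B 7 rose and 1 fell.

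Tissue markers differed in kind. Of 15 intestine markers, 8 fell and 1 rose, with medians of −0.53, −0.99 and −0.91 in the 3 sets. Over all genes 15.2% fell and 21.3% rose. act-5, the actin of the gut's microvilli, went from 3.81, 4.60 and 4.39 to 2.82, 2.69 and 3.25 (−1.35 ± 0.26), and the acid phosphatase gene pho-1 fell by 1.84 ± 0.26. The marker that rose was ges-1, the gut esterase, from −0.11, 0.15 and 0.47 to 2.23, 2.38 and 2.38 (2.16 ± 0.19). elt-2, the regulator of intestinal genes, lay within 2-fold (0.43). Of 23 muscle markers 12 lay within 2-fold, 1 fell, tni-3 (−1.08), and 1 rose, hlh-1. Of 14 neuron markers 11 lay within 2-fold and 4 rose, with the receptor channel gene tax-2 (2.07 ± 0.30) the largest and well above background on 1 of 3 N2 arrays. Without set B 5 intestine markers fell and 1 neuron marker rose.

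**Figure D4:**
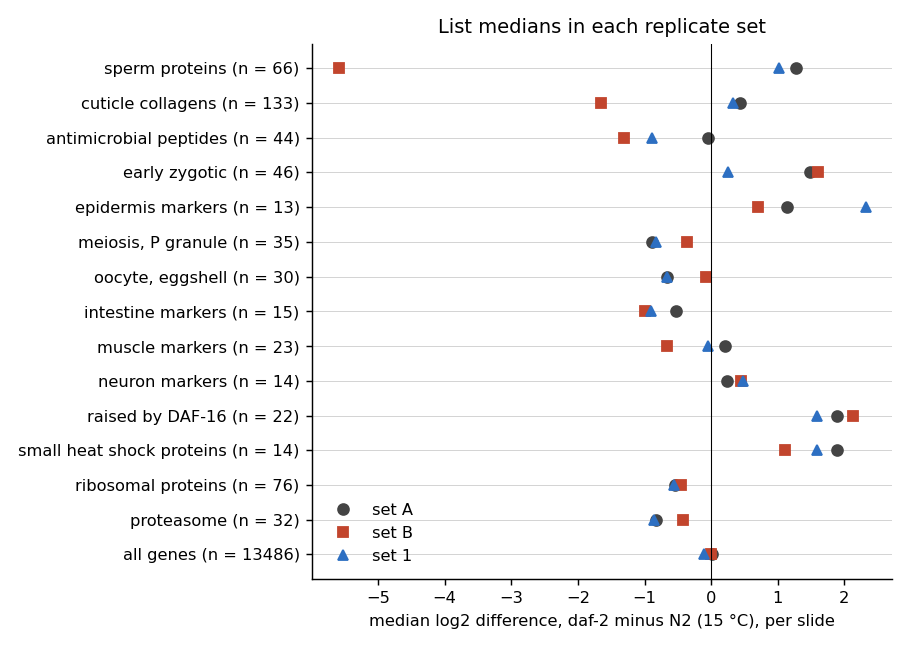
Median log2 difference of warmed daf-2 minus cold-grown N2 over the members of 14 gene lists and over all genes, taken within each of the 3 slides (replicate sets). The sets lie near each other for genes raised by DAF-16 and ribosomal protein genes, whereas set B lies at −5.59 for sperm proteins and −1.65 for cuticle collagens.

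Most neuropeptide genes stayed near cold-grown N2. Of 95 measured, 65 (against 39.5% of all genes) lay within 2-fold, 8 rose and 15 fell. The share that changed, 24.2%, was below the 36.5% of all genes. flp-18 was at −0.29, −0.21 and −0.20 in N2 and at −0.25, −0.18 and −0.25 in daf-2, and flp-16 differed by 0.04 with an interval from −0.23 to 0.31. The falls included peptides of the nlp group with roles in epidermal defence, such as nlp-29 (−1.22) and nlp-30 (−2.13). Without set A or set B 4 of the 95 fell. Other genes with narrow intervals around 0 were the glycolytic aldo-2 (0.07, interval −0.23 to 0.37), the nuclear receptor gene nhr-1 (0.05, −0.21 to 0.32) and the collagen gene col-80 (−0.23, −0.61 to 0.14). Other nhr-1 probes differed by 0.61 ± 0.22 and 0.03 ± 0.15, and neither passed.

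To see how these levels stand to warming alone, N2 after 12 h at 25 °C is given beside both groups. It shares the N2 arrays at 15 °C with the comparison above, and a direct comparison of the strains at 25 °C shares the daf-2 arrays, so the 3 differences of a gene are not independent. In N2, 355 of 13486 genes (2.63%) changed after 12 h, 249 upward (1.85%) and 106 downward (0.786%). Between the strains at 25 °C 1938 genes were higher (14.4%) and 1024 lower (7.59%) in daf-2.

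Some genes that fell in warmed N2 were at the level of cold-grown N2 in warmed daf-2. asp-3, a cathepsin D-like protease, was at 6.50, 6.66 and 6.74 in cold-grown N2, and it fell by 0.79 in warmed N2. In daf-2 it was at 6.57, 6.58 and 6.51, within 2-fold of cold-grown N2 (−0.08, interval −0.42 to 0.26) and above warmed N2 by 0.71. Other asp-3 probes differed from cold-grown N2 by −0.44 ± 0.28 to 0.07 ± 0.30, and none passed. With quantile normalization, alone or after normexp correction, asp-3 was 0.40 and 0.39 above cold-grown N2 (adjusted p = 0.0318 and 0.0276). ugt-24 behaved likewise in its calls, with a fall of 0.92 in warmed N2 and a difference of 0.26 in daf-2 that lay within 2-fold. For the cathepsin B-like cpr-1 the fall in warmed N2 was 2.29, whereas daf-2 was at 3.15, 3.91 and 3.08 against 3.39, 3.88 and 4.11, a difference of −0.41 with an interval from −1.28 to 0.46. dhs-26 fell by 2.84 in warmed N2 and differed by −0.10 in daf-2, with an interval from −1.05 to 0.86. For the latter pair the intervals reach past 2-fold, while each was higher in daf-2 than in warmed N2 (1.88 and 2.74, both past the threshold).

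Other genes of the warming response were changed in both strains. The lysozyme gene lys-5 was at 3.71, 3.66 and 3.49 in cold-grown N2 and at 2.57, 2.37 and 1.79 in daf-2, a fall of 1.38 ± 0.20, and it fell by 2.11 in warmed N2; daf-2 lay 0.73 above warmed N2. clec-70 fell by 2.93 in daf-2 and 2.94 in warmed N2, and was well above background on 1 of 3 daf-2 arrays. cnc-2 fell by 3.40 and 2.17, and clec-10 by 4.47 and 2.05. Upward, fbxc-34, an F-box gene, rose by 5.25 ± 0.55 in daf-2 and 2.83 in warmed N2, and ugt-66 by 4.57 ± 0.62 and 3.11; in cold-grown N2 the former passed the background on 1 of 3 arrays and the latter on 2. The secreted SCP-like scl-24 rose by 5.38 ± 0.87 and 4.23, from a level well above background on 1 of 3 arrays of cold-grown N2.

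A last set rose in warmed N2 and less or not at all in warmed daf-2. drd-50 rose by 3.05 in N2, but in daf-2 was at −6.61, −5.65 and −5.55 against −5.60, −5.23 and −4.07 in cold-grown N2 (−0.97, interval −2.07 to 0.13), and it was well above background on 1 of 3 arrays of each of these groups. It lay 4.02 below warmed N2, past the threshold. sdz-6 rose by 4.22 in N2 and by 1.23 ± 0.35 in daf-2, which lay 2.99 below warmed N2 and was well above background on 1 of 3 arrays in both daf-2 and cold-grown N2. The hsp-16 genes differed among themselves. In warmed N2 the rise was 2.43 for hsp-16.1, 2.57 for hsp-16.41 and 2.48 for hsp-16.48, and at 25 °C the strains differed by −0.68, 0.44 and −0.16 in that order, none past the threshold. hsp-16.21, in contrast, had a difference of −0.00 in warmed N2 and lay 4.28 ± 0.47 higher in daf-2 than in warmed N2 (adjusted p = 0.000267). It was well above background on 1 of 3 arrays in cold-grown and in warmed N2, so the sizes of both differences are uncertain. For hsp-16.2 the difference in warmed N2 was 2.73 and that between the strains at 25 °C 2.29, and neither passed. hsp-12.6, by contrast, fell by 1.24 in warmed N2 and rose by 1.54 in daf-2.

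**Figure D5:**
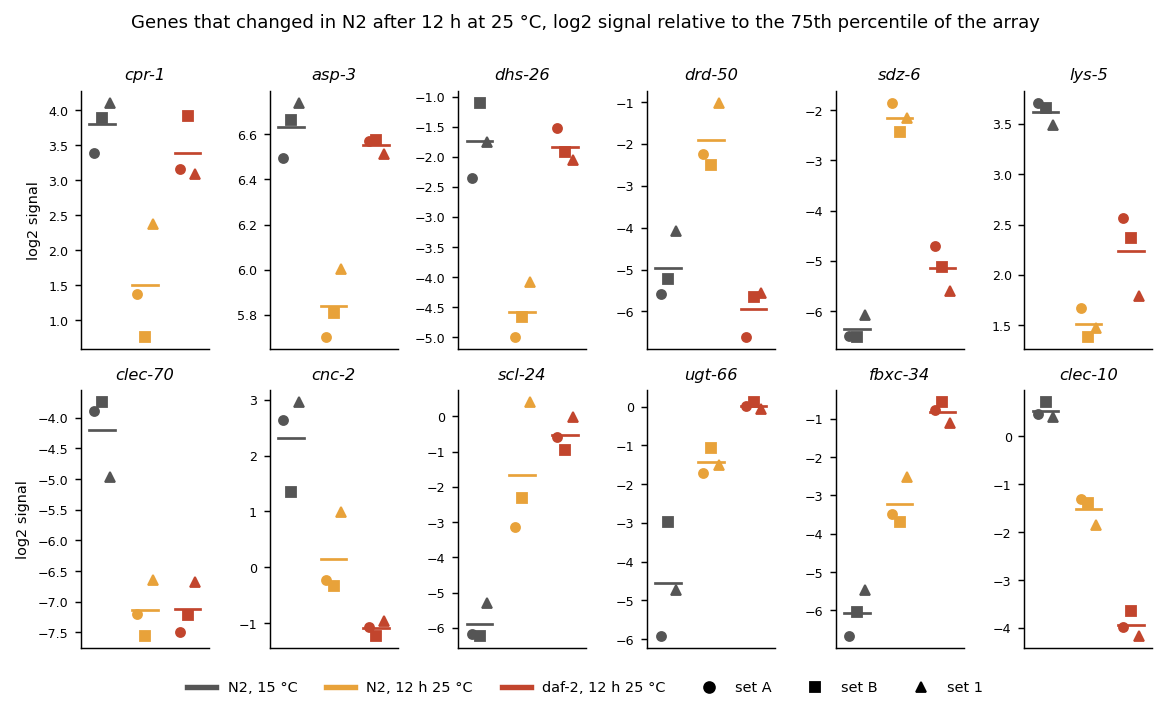
Log2 signals relative to the array's 75th percentile for 12 genes that changed in N2 after 12 h at 25 °C; each point is 1 array, shapes mark replicate sets, lines are group means, and each panel has its own vertical scale. In asp-3 and dhs-26 the daf-2 arrays lie with cold-grown N2, in clec-70 with warmed N2, and in fbxc-34 and clec-10 beyond both.

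Over the lists, the median difference from cold-grown N2 was far larger in daf-2 than in warmed N2 for genes raised by DAF-16, at 1.89 against −0.09, with 0 of 22 rising and 1 falling in warmed N2. Insulin-like peptides had medians of 0.75 and −0.02, pals genes 1.46 and 0.02, and proteasome subunits −0.71 and −0.13. Early embryonic genes had medians of 1.1 and 0.71, and UDP-glucuronosyltransferases 0.40 and 0.41. These medians share the N2 arrays at 15 °C and no difference between them was tested beyond the single genes given above.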

How the data were processed

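Single-colour Agilent arrays measured total RNA of whole worms. Spots were extracted with Agilent Feature Extraction 10.10.1.1, per the file headers, and the deposited values are the scanner's processed intensity, which is background-corrected but not normalized between arrays. The authors' deposited series table holds the same intensity multiplied by a constant per array, to within 0.0373 log2, with its scaling unstated, and served as an alternative. Here each array's log2 intensity was taken minus its 75th percentile. Of 45220 spots, 1417 controls and 31 to 157 outlier spots per array were left out. Names came from the RefSeq gene table for 34320 of 43603 probes. The brightest probe stood for a gene, and a gene was kept if some group had it well above background on all 3 of its arrays, which left 13486. limma 3.58.1 in R 4.3.3 fitted 1 mean per group over all 12 arrays, with Benjamini-Hochberg adjustment and a threshold of 0.05. Each ± is a standard error. The number of arrays limits the precision.

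Because the files have no mean-signal column, the normexp alternative used the median signal with the median background. Other alternatives were the scaling, the dim-probe filter, the choice of probe, the arrays fitted, the slide as a block and leaving out arrays or sets; counts without a set or an array in the gene lists were added after seeing the data. Every group had the same place on each slide, so place and group cannot be told apart. Deviations from the group means correlated between same-numbered arrays of cold-grown N2 and daf-2 at 0.14 in set A, −0.59 in set B and 0.01 in set 1. The main fit did not treat the set number as a pairing. These correlations leave out the other 2 groups and cannot show that a slide effect is absent. The cold-grown N2 array of set B correlated at 0.986 and 0.973 with the warmed N2 arrays of its slide. With the other arrays of its own group it correlated at 0.918 and 0.928. Genes were named as the largest changes, the largest within lists, fixed genes of the insulin pathway and those that changed in warmed N2. The comparison and the lists were chosen with earlier results of these data known. The fit was also run on simulated data with independent noise and no slide effect. That run cannot show how the fit performs where arrays of a slide are alike. No probe or promoter sequence was used here.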

Additional observations from a re-analysis of the deposited data

How the results depend on the processing

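The counts of changed genes and of genes within 2-fold were 4920 and 5323. They moved by more than 1.5 times with median centring, to 3272 and 2134, and with all kept probes, to 8904 and 10568 of 26579 probes, an alternative that tests more features; the cause of the former was not tested. Leaving out single arrays or a whole set gave 1742 to 4561 changed genes and 3073 to 5218 within 2-fold, the lowest counts coming from fits with fewer arrays. The fit with the replicate block gave 6844 and 6516, and with it 10 named genes given as not passed passed the threshold, while 0 lost their call. Of 190 named genes, 71 changed their call or direction under at least 1 alternative and the rest under none. These calls are the threshold and the sign only. Whether a named gene stayed within 2-fold was not followed across alternatives. With median centring 1636 of the 5323 genes within 2-fold were still within it. asp-3, within 2-fold in the main setting, turned to 0.398 with quantile normalization and 0.395 with normexp correction before it. The arrays carry few samples, the median width of a 95% interval was 1.1 on the log2 scale, and 22 genes were well above background on no array of cold-grown N2, where only bounds can be given. Sets A and B had fewer probes above background than set 1.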

Other observations

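Gene families defined by a shared name prefix were counted for all 76 prefixes with at least 15 measured genes, after the values had been seen, so the counts describe these arrays and carry no test. F-box genes of the fbxb group, which recruit proteins for ubiquitin-dependent breakdown, rose in 79 of 94 cases and fell in 0, with a median log2 difference of 1.85 and with 2.36, 2.33 and 0.93 in sets A, B and 1. In N2 after 12 h at 25 °C their median was 0.92 and 0 of the 94 passed. Their partners in the ligase, the Skp1-related skr genes, rose in 15 of 20 cases, and fbxc genes in 23 of 40. The fbxa genes were mixed, with 40 of 113 higher and 14 lower. Over all genes 21.3% rose.

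Carboxylesterase genes (cest) rose in 21 of 30 cases, cutl genes of the cuticle in 12 of 19 with a median of 1.74, tetraspanin genes (tsp) in 12 of 18 and homeobox genes of the ceh group in 23 of 45. Mitochondrial ribosomal proteins fell in 13 of 41 mrpl and 10 of 29 mrps genes and rose in 0, and nuclear pore genes (npp) fell in 9 of 26, against 15.2% of all genes.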
